A study of Mus musculus with 12 samples.

Results

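The hair shaft is built from hair keratins and from the keratin-associated proteins (KAPs) that fill the space between the keratin filaments. Both families were followed here across cultured mouse keratinocytes and whole skin. The members were all probe sets whose platform gene symbol begins with Krtap, or reads Krt31 to Krt40 or Krt81 to Krt86. The rule used gene names alone and no measured value. It gave 43 of the 22690 probe sets on the array, for 38 of the 12393 genes that have a probe set with 1 symbol. They comprised 7 type I hair keratin probe sets, 5 type II hair keratin probe sets, 8 for high sulfur KAPs, 7 for ultra-high sulfur KAPs, 15 for high glycine-tyrosine KAPs and 1 for Krtap28-13, which was left without a KAP class. The KAP classes follow the family numbers of the nomenclature.

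RNA was measured on 12 Affymetrix mouse arrays. There were 5 arrays of primary keratinocytes of newborn mice, each from the pooled cells of 5 mice of one genotype, kept unpassaged in low-calcium medium for at most 3 days. Of these, culture replicates 1 and 2 were of a mixed C57, DBA and FVB strain and replicates 3, 4 and 5 were FVB. The skin tissue arrays were 2 of newborn FVB mice and 5 of mice 30 days old of the mixed strain, so that strain and age coincided within skin and cannot be told apart there. The stated aim was to compare tissue with culture and newborn with older animals. Whether each skin array stands for its own animal is not in the labels, and the p-values therefore rest on variation among arrays that could be technical.

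Hair keratins pair as type I and type II chains into filaments in cells of the growing hair matrix, cortex and cuticle. KAPs, rich either in cysteine or in glycine and tyrosine, are made after the keratins and crosslink or embed those filaments as the cells harden. In skin these genes are known as products of the hair follicle in its growth phase and not of the epidermis between follicles.

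All values below are log2 RMA values, a scale on which a difference of 1 is a 2-fold difference. Values of different probe sets are not compared, since each has its own affinity. Array medians lay between 5.86 and 6.01. The 30-day skin replicate 1 stood apart from the other 4 arrays of its group. Its actin probe sets differed by 1.74 between the 3' and 5' ends (0.67 to 0.82 on the others), and its 18S ribosomal RNA probe sets averaged 8.16 (5.30 to 5.93). These measures also differed between groups. The actin difference was 0.21 to 0.74 in culture and 0.99 and 1.14 in newborn skin, and the 18S mean was 5.72 to 6.35 in culture and 5.15 and 5.23 in newborn skin. Their part in the comparisons was not tested. Some arrays lay close together, with an SD of the difference over all probe sets of 0.158 for culture replicates 1 and 2, 0.17 for 30-day replicates 2 and 3, and 0.176 for 30-day replicates 4 and 5. Newborn replicates 1 and 2 gave 0.203 and culture replicates 3 and 4 gave 0.226, and the remaining pairs within groups gave 0.263 to 0.416. The labels do not say whether close arrays share animals or RNA. The effect of averaging those 5 pairs on the members' calls is given where there was one.

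The start regions of these genes are shown first, since many of the genes lie side by side and moved together in the comparisons that follow. RefSeq promoters of the GRCm38.p6 build were matched by symbol for 32 of the 38 genes. None was matched for Krt33a, Krt35, Krt81, Krt83, Krt86 and Krtap12-1. Of the 32, 16 lie on chromosome 16, 10 on chromosome 11, 3 on chromosome 7, 2 on chromosome 15 and 1 on chromosome 1. The last 80 bases before the annotated start follow for 10 genes, 5′ to 3′ on the gene's strand, with every TATAAA or TATATAAG in capitals. They were picked as a pair of neighbouring cortex keratins, the keratin that was not raised in newborn skin, KAPs with large differences, and pairs of related KAPs.
Krt31: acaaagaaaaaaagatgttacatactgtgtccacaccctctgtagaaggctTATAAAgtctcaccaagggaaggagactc
Krt34: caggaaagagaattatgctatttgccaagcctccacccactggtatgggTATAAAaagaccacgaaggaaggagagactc
Krt84: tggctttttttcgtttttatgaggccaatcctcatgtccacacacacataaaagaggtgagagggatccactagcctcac
Krtap14: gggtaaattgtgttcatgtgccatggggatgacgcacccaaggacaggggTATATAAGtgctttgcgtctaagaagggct
Krtap4-2: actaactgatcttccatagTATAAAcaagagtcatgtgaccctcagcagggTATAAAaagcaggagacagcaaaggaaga
Krtap5-1: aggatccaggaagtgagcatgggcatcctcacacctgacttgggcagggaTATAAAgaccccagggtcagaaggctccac
Krtap5-2: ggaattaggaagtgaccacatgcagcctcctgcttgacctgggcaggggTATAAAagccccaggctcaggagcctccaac
Krtap8-1: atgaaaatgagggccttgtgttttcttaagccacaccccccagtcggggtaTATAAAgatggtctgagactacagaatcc
Krtap19-1: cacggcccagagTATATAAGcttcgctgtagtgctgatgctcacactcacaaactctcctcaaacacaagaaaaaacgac
Krtap19-2: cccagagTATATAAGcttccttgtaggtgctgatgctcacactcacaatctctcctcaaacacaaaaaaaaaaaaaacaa

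All 10 windows are on the minus strand. On chromosome 11 they are chr11:100050552-100050631 for Krt31, chr11:100041555-100041634 for Krt34 and chr11:99635085-99635164 for Krtap4-2. Krt84 has chr15:101532821-101532900, Krtap5-1 has chr7:142297135-142297214 and Krtap5-2 has chr7:142176006-142176085. On chromosome 16 they are chr16:88826146-88826225 for Krtap14, chr16:88869411-88869490 for Krtap19-1, chr16:88874270-88874349 for Krtap19-2 and chr16:89487953-89488032 for Krtap8-1.

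TATAAA or TATATAAG, variants of the TATA box at which the core transcription machinery can assemble, stood on the sense strand of this window in 29 of the 32 genes. The same held for 3.79% of the 32544 distinct promoters in the table. The first motif base lay 29 to 73 bases before the start, with a median of 31. The windows of Krt82, Krt84 and Krtap5-4 held neither. Over all 250 bases before the start and both strands, TATAAA was in 71.9% of the members' promoters and 12.3% of all promoters, and TATATAAG was in 21.9% and 0.943%. On one strand these motifs cannot overlap, but across strands they can, so a promoter may count for both. CTTTGA, the core that Lef1 and its relatives recognise, was in 37.5% of the members' promoters and 13.9% of all. TTTAC, contained in the known motif of Hoxc13, was in 50% and 28.1%. CCACACC, chosen after some of these promoters had been read, was in 18.8% and 6.54%. Over the 250 bases, the promoters of Krtap19-1 and Krtap19-2 were 90.8% identical by edit distance, Krt31 and Krt34 58.4%, and Krtap5-1 and Krtap5-2 55.2%, against a median of 46.8% over all 496 pairs. These matches are descriptions of letters, and no binding was measured.

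Hair keratins and KAPs were lower in cultured keratinocytes than in the skin of newborn mice, the age from which the cells were taken. In the fit over all 22626 probe sets that were not controls, 35 of the 43 members were lower and 0 were higher at an adjusted p below 0.05. In this comparison 32.3% of all probe sets were called in either direction and 14.7% were called lower in culture. The members' median difference was -3.07, from -6.57 to 0.14, and the median over all probe sets was 0.04. All cultures lay below both newborn arrays for 39 members, as they did for 20% of all probe sets. In bulk samples such as these, fewer cells of a type and less RNA per cell cannot be told apart.

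**Figure D1:**
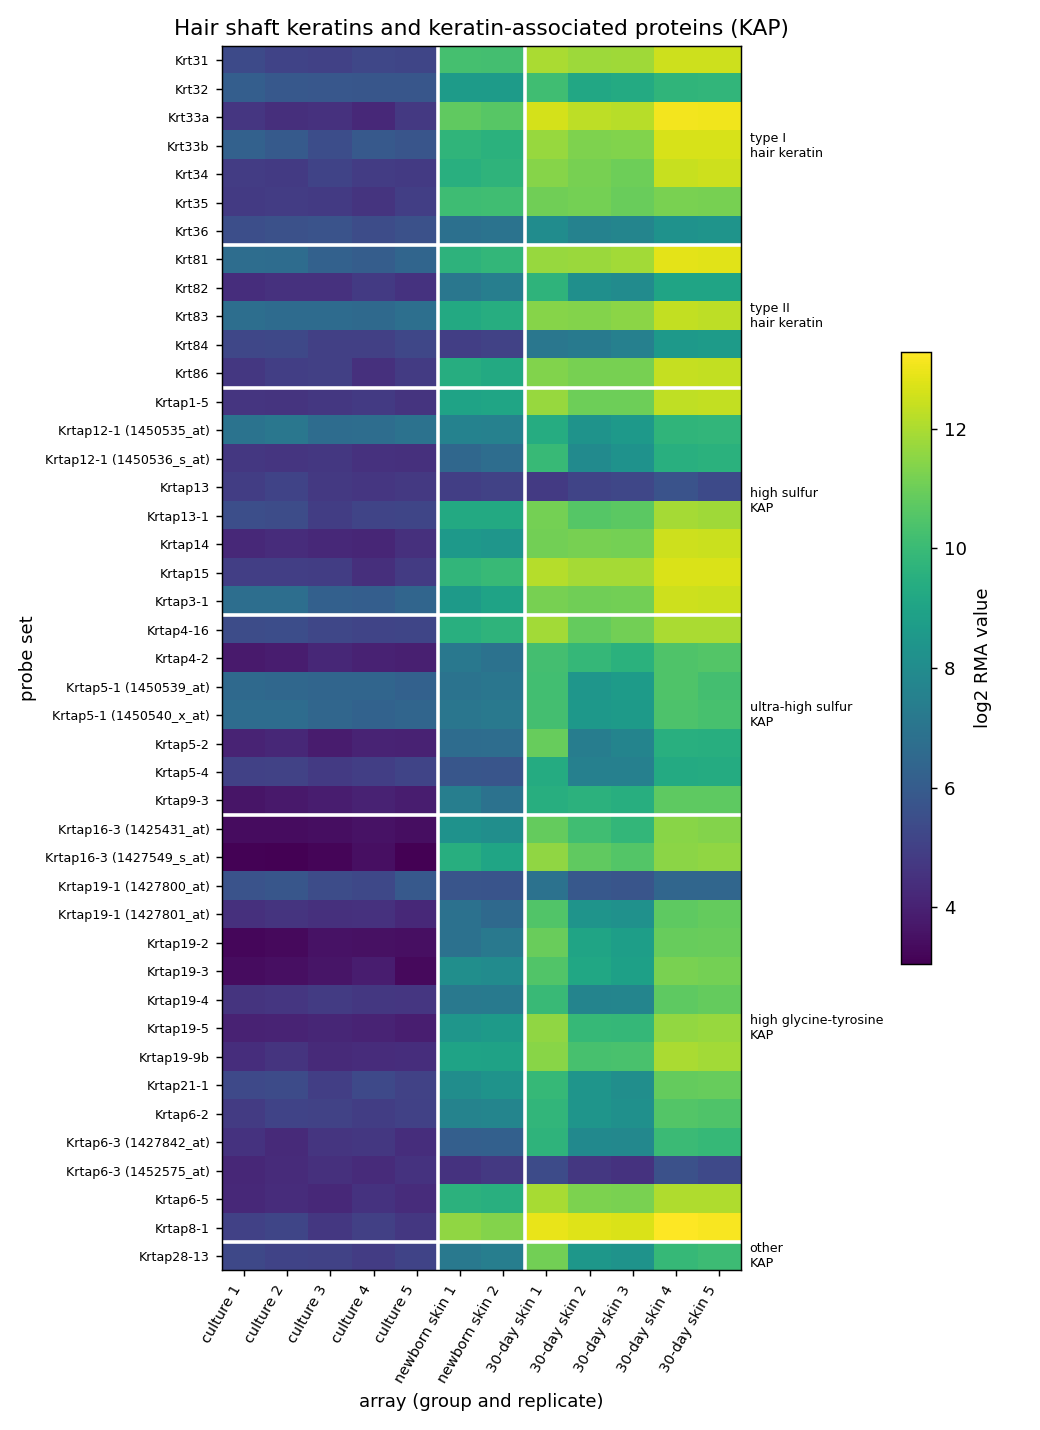
Log2 RMA value (colour) of each of the 43 probe sets (rows, by family) on each of the 12 arrays (columns, by group and replicate), with white lines between groups and families. The 5 culture columns are dark for most rows, newborn skin is intermediate and 30-day skin is brightest, with replicates 4 and 5 brighter than 2 and 3. Colours should be compared along a row and not between rows.

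The cortex keratins gave some of the clearest separations. Krt33a, a type I cortex keratin, read 4.65, 4.44, 4.51, 4.23 and 4.73 in the cultures and 10.79 and 10.63 in newborn skin. Its difference was -6.20 ± 0.23 (SE), 73.7-fold, with a limma adjusted p of 2.81e-10. Krt31, another cortex chain, read 5.34, 5.10, 5.02, 5.24 and 5.20 against 10.25 and 10.21. Every culture was far below either newborn array for both genes, and the 5 cultures lay within 0.50 of each other for Krt33a.

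Krt35, which is made early, in the hair matrix and cuticle, had the smallest standard error of the family. It read 4.77, 4.85, 4.79, 4.58 and 4.95 in culture and 10.12 and 10.14 in newborn skin, a difference of -5.34 ± 0.11 with an adjusted p of 1.55e-12. The median over the 7 type I hair keratins was -4.72, and each of the 7 was called lower in culture. The smallest difference among them, -1.35 ± 0.18, was that of Krt36, which is also known from nail and tongue.

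Among the 5 type II hair keratins, 4 were lower in culture, with a family median of -2.71. Krt81, a cortex chain, read 6.70, 6.65, 6.24, 6.05 and 6.37 in culture and 9.67 and 9.84 in newborn skin, a difference of -3.35 ± 0.31. Krt86, its close relative, read 4.70, 4.94, 4.99, 4.48 and 4.82 against 9.43 and 9.25. Neither gene's groups overlapped.

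Krt84 was the exception among the keratins. It is known chiefly from tongue papillae and nail. It read 5.24, 5.25, 4.98, 4.99 and 5.22 in culture and 4.94 and 5.05 in newborn skin, so the groups overlapped. The difference was 0.14 ± 0.35 with an adjusted p of 0.819.

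High glycine-tyrosine KAPs, small proteins that are plentiful in the cortex of rodent hair, held the largest difference of this comparison. Krtap8-1 read 5.02, 5.18, 4.71, 4.98 and 4.70 in culture and 11.58 and 11.39 in newborn skin. That is -6.57 ± 0.17, or 94.9-fold, with an adjusted p of 1.13e-11. Of the 15 probe sets of this class, 13 were lower in culture, and the class median was -3.62. Both probe sets of Krtap16-3 were among them, at -4.76 ± 0.35 and -6.10 ± 0.27.

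High sulfur KAPs, which crosslink keratin through cysteine, were lower in culture for 6 of 8 probe sets, with a median of -3.20. Krtap15 read 4.94, 4.95, 4.90, 4.43 and 4.83 in culture and 9.78 and 9.93 in newborn skin, a difference of -5.05 ± 0.23. Ultra-high sulfur KAPs, known from cortex and cuticle, were lower for 4 of 7, with a median of -2.64. The largest of these was Krtap4-16, which read 5.42, 5.47, 5.23, 5.14 and 5.17 in culture and 9.5 and 9.71 in newborn skin, at -4.32 ± 0.27 (adjusted p = 3.4e-08), and Krtap28-13 was at -2.21 ± 0.55 (adjusted p = 0.00664).

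The 8 probe sets that missed the threshold were Krt84, 1 of 2 for Krtap12-1, Krtap13, 1 of 2 for Krtap19-1, both for Krtap5-1, Krtap5-4, and 1 of 2 for Krtap6-3. Their differences ran from -0.79 ± 0.47 for Krtap5-4 (adjusted p = 0.236) to that of Krt84. For Krtap5-4, both Krtap5-1 probe sets and the Krtap12-1 probe set (1450535_at, -0.69 ± 0.33, adjusted p = 0.14), every culture still lay below both newborn arrays. Krtap5-4, an ultra-high sulfur KAP, read 5.02, 5.05, 4.78, 4.93 and 5.14 in culture and 5.79 and 5.76 in newborn skin. Krtap12-1 (1450535_at), a high sulfur KAP, read 6.93, 7.1, 6.68, 6.69 and 6.92 against 7.57 and 7.53. These cultures were all below the newborn arrays, by less than 1 log2 unit on average. Krtap5-1, of the ultra-high sulfur class, read 6.53, 6.47, 6.4, 6.39 and 6.21 against 6.94 and 7.06 by 1450539_at. By 1450540_x_at it read 6.68, 6.68, 6.43, 6.27 and 6.39 against 7.08 and 7.18. The 2 Krtap5-1 probe sets were at -0.60 ± 0.45 and -0.64 ± 0.46, with adjusted p of 0.37 and 0.333. The standard errors pool the spread of all 3 groups, the 30-day arrays included. With only cultures and newborn skin in the fit, 39 members were called, and those not called were Krt84, Krtap13 and 1 probe set each for Krtap19-1 and Krtap6-3. That fit called 31.3% of all probe sets in either direction, and 3253 of the 22626 as lower in culture.

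Only 2 newborn arrays stood behind this comparison. With either of them left out, fewer members were called, as were fewer of all probe sets, with the remaining array assumed to vary like the other groups. Calls lost on leaving out either were those of Krtap19-1 (1427801_at), Krtap19-4, Krtap5-2 and Krtap6-3 (1427842_at), and without replicate 2 also Krtap28-13. Averaging close arrays also merges the newborn arrays, and again fewer members and fewer of all probe sets were called.

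Against 30-day skin, the cultures were lower for all 43 members. Here 43.3% of all probe sets were called in either direction and 18.2% were called lower in culture. The members' median difference was -5.79, from -8.14 to -0.40, beside a median of 0.03 over all probe sets. For 33 members the difference was at least 4 on the log2 scale. All cultures lay below all 30-day arrays for 41 members, and for 13.9% of all probe sets. This comparison and the preceding one share the cultures.

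Krt33a read 12.61, 12.28, 12.17, 13.11 and 13.07 in 30-day skin, a difference of -8.14 ± 0.18 for culture against 30-day skin, or 282-fold (adjusted p = 5.54e-13). Krtap8-1 read 12.95, 12.77, 12.69, 13.28 and 13.17, with a difference of -8.05 ± 0.13. Krtap16-3 (1427549_s_at), of the high glycine-tyrosine class, read 3.10, 3.06, 3.20, 3.47 and 3.05 in culture and 11.60, 10.78, 10.54, 11.52 and 11.60 in 30-day skin, a difference of -8.03 ± 0.20. No culture came near any 30-day array for these genes.

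Family medians for culture against 30-day skin were -6.33 for type I keratins, -5.12 for type II keratins, -5.62 for high sulfur, -4.96 for ultra-high sulfur and -6.65 for high glycine-tyrosine KAPs. Every member of each was lower in culture. Krt35 had the smallest adjusted p of the 43, 5.27e-15, with a difference of -6.33 ± 0.08. Krt84, at newborn level in culture, differed from 30-day skin by -2.67 ± 0.27, with an adjusted p of 2.11e-06.

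Differences of less than 2-fold were limited to Krtap13, Krtap19-1 (1427800_at) and Krtap6-3 (1452575_at). Krtap13, a high sulfur KAP, read 4.92, 5.11, 4.73, 4.66 and 4.74 in culture and 4.78, 5.16, 5.23, 5.65 and 5.33 in 30-day skin, and these groups overlapped. Its difference of -0.40 ± 0.14 (adjusted p = 0.0319) lost its call when any of culture replicates 3, 4 and 5 or of 30-day replicates 3, 4 and 5 was left out, with adjusted p from 0.055 to 0.0789. Krtap19-1 (1427800_at) was at -0.68 ± 0.20 (adjusted p = 0.0133), also with overlapping groups.

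The levels in culture themselves varied little. The median SD of a member over the 5 cultures was 0.14, and the largest was 0.3. For 35 members the value was below the array's median on all 5 cultures, and for 6 it was above it on all 5. Those 6 included Krt81, Krt83, Krtap3-1, both Krtap5-1 probe sets and Krtap12-1 (1450535_at). The table holds no detection calls, so whether a culture value lies above background is not known, and the folds depend on that background.

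**Figure D2:**
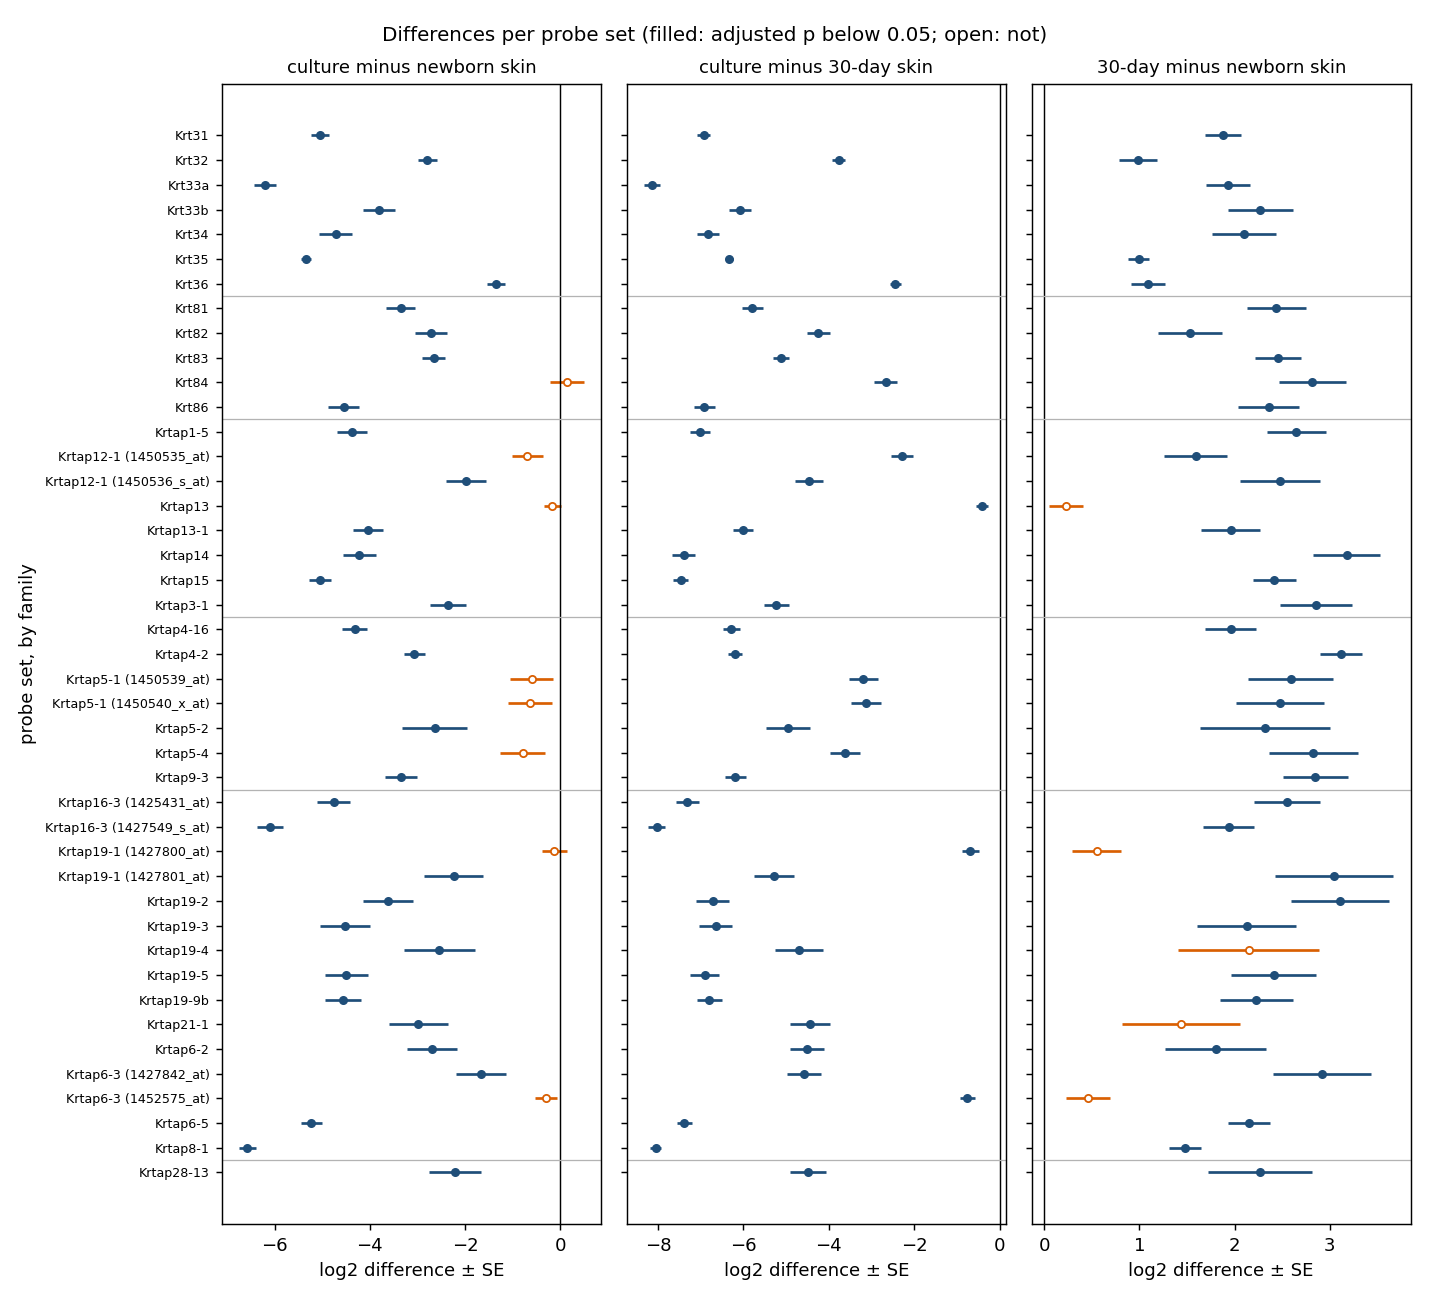
Log2 difference ± SE of each probe set (rows, by family) for culture minus newborn skin, culture minus 30-day skin, and 30-day minus newborn skin, each panel with its own log2 axis; filled points passed an adjusted p of 0.05 and open points did not. All points of the middle panel are filled and below 0, and 8 points of the left panel and 5 of the right panel are open.

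Lists of several other cell types of skin moved in the same comparison. The fibroblast list (10 probe sets) had array means of 5.32 to 5.90 in culture, 10.53 to 10.59 in newborn skin and 10.21 to 10.80 in 30-day skin. Adipocyte (9 probe sets), muscle (6) and macrophage (7) lists were likewise lower in every culture than in any skin array. The melanocyte list (8) was not, at 6.79 to 8.54 in culture, 7.43 to 7.49 in newborn skin and 8.35 to 8.76 in 30-day skin. The suprabasal keratinocyte list (6) averaged 6.30 to 7.24 in culture and 9.37 to 10.32 in skin. The basal list (11) was at 9.47 to 9.78 in culture and 8.54 to 8.82 in skin, and the epithelial junction list (23) at 8.75 to 8.95 and 8.17 to 8.72. Thus the cultures read as keratinocytes by both of the last lists. The part of this mixture in the members' differences was not tested. With arrays centred on the epithelial junction list, 42 members were called lower in culture than in newborn skin, and so were 14907 of all 22626 probe sets. Against 30-day skin 43 members were called lower, and 6773 of all probe sets.

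Hair keratins and KAPs were higher in 30-day skin than in newborn skin. Of the 43 members, 38 were called higher and 0 lower. Here 12.1% of all probe sets were called in either direction and 4.75% were called higher at 30 days. The median difference of the members was 2.27, from 0.23 to 3.18, and that of all probe sets was 0.00. All 30-day arrays lay above both newborn arrays for 40 members, and for 14.6% of all probe sets.

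With the 5 close pairs of arrays averaged, 15 members were called, beside 1.24% of all probe sets in either direction. Those 15 were Krt31, Krt33a, Krt35, Krt83, Krt86, Krtap1-5, Krtap4-2, Krtap4-16, Krtap6-5, Krtap8-1, Krtap9-3, Krtap14, Krtap15 and both Krtap16-3 probe sets. With either newborn array left out, fewer members were called, as were fewer of all probe sets. Krtap28-13 was then at 2.16 without newborn replicate 1 and at 2.39 without replicate 2. Krtap12-1 (1450535_at) was at 1.61 and 1.57.

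The largest difference was that of Krtap14, a high sulfur KAP. It read 8.60 and 8.42 in newborn skin and 11.12, 11.20, 11.16, 12.52 and 12.47 at 30 days, a difference of 3.18 ± 0.35, or 9.09-fold (adjusted p = 5.81e-05). Krtap4-2, of the ultra-high sulfur class, read 7.14 and 6.92 against 10.24, 9.87, 9.59, 10.48 and 10.56. Its difference of 3.12 ± 0.22 had the smallest adjusted p of the members, 1.11e-06. In both genes the lowest 30-day array was more than 2 above the higher newborn array.

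All 5 type II keratins were higher at 30 days, with a median of 2.44. Krt84, which had not differed between culture and newborn skin, read 7.11, 7.26, 7.49, 8.54 and 8.66 at 30 days, 2.82 ± 0.35 above newborn skin (adjusted p = 0.000166). Krt81 read 11.7, 11.73, 11.85, 12.85 and 12.84, a difference of 2.44 ± 0.31. Krt82, a cuticle keratin, read 7.10 and 7.41 in newborn skin and 9.69, 8.16, 7.99, 9.03 and 9.04 at 30 days, 1.53 ± 0.34 higher (adjusted p = 0.01). For each of these the groups were apart.

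All 7 type I keratins were higher as well, with a median of 1.88. The smallest called differences of the whole family were here. Krt32, a cuticle keratin, read 8.66 and 8.66 in newborn skin and 10.15, 9.19, 9.31, 9.75 and 9.80 at 30 days, 0.98 ± 0.20 higher. Krt35 read 11.07, 11.16, 10.94, 11.22 and 11.17 at 30 days, 0.99 ± 0.11 higher (adjusted p = 7.3e-05). Its 30-day arrays hardly varied, with an SD of 0.11.

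Among KAPs, 7 of 8 high sulfur, 7 of 7 ultra-high sulfur and 11 of 15 high glycine-tyrosine probe sets were higher at 30 days, with medians of 2.45, 2.59 and 2.15. Krtap19-2, of the glycine-tyrosine class, read 6.85 and 7.18 in newborn skin and 10.93, 9.02, 8.80, 10.92 and 10.95 at 30 days, a difference of 3.11 ± 0.52. Krtap8-1 was 1.48 ± 0.17 higher (adjusted p = 9.29e-05). Krtap28-13 read 7.18 and 7.41 against 11.09, 8.46, 8.30, 9.92 and 10.07, a difference of 2.27 ± 0.55 (adjusted p = 0.0161).

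The 5 probe sets not called were of 2 kinds. Krtap13 (0.23 ± 0.18), Krtap19-1 (1427800_at, 0.55 ± 0.26) and Krtap6-3 (1452575_at, 0.46 ± 0.23) differed little, with adjusted p of 0.5, 0.214 and 0.239. Krtap19-4 and Krtap21-1 had wide 30-day values instead. Krtap19-4 read 7.20 and 7.26 in newborn skin and 9.97, 7.65, 7.69, 10.75 and 10.87 at 30 days, a difference of 2.15 ± 0.74 with an adjusted p of 0.0794. Krtap21-1 read 8.05 and 8.32 against 9.89, 8.39, 8.12, 10.86 and 10.89, so that its groups overlapped (1.44 ± 0.62, adjusted p = 0.162).

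Strain cannot be told apart from age in these 7 skin arrays. With a strain effect taken from the cultures in the fit, 29 members were called higher at 30 days, and 871 of all 22626 probe sets. Melanocyte markers (8 probe sets) averaged 7.43 to 7.49 in newborn skin and 8.35 to 8.76 at 30 days, suprabasal markers 10.27 to 10.32 and 9.37 to 9.56, and inner root sheath genes (6) 10.22 to 10.37 and 10.81 to 11.68. Among the cultures, 7 of the 8 melanocyte probe sets were called higher in mixed-strain than in FVB cultures, with a median of 1.95. Over all 22626 probe sets 885 were. Relative to the epithelial junction list, 37 members were called higher at 30 days, and 331 of all probe sets. The part of the other lists was not tested.

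**Figure D3:**
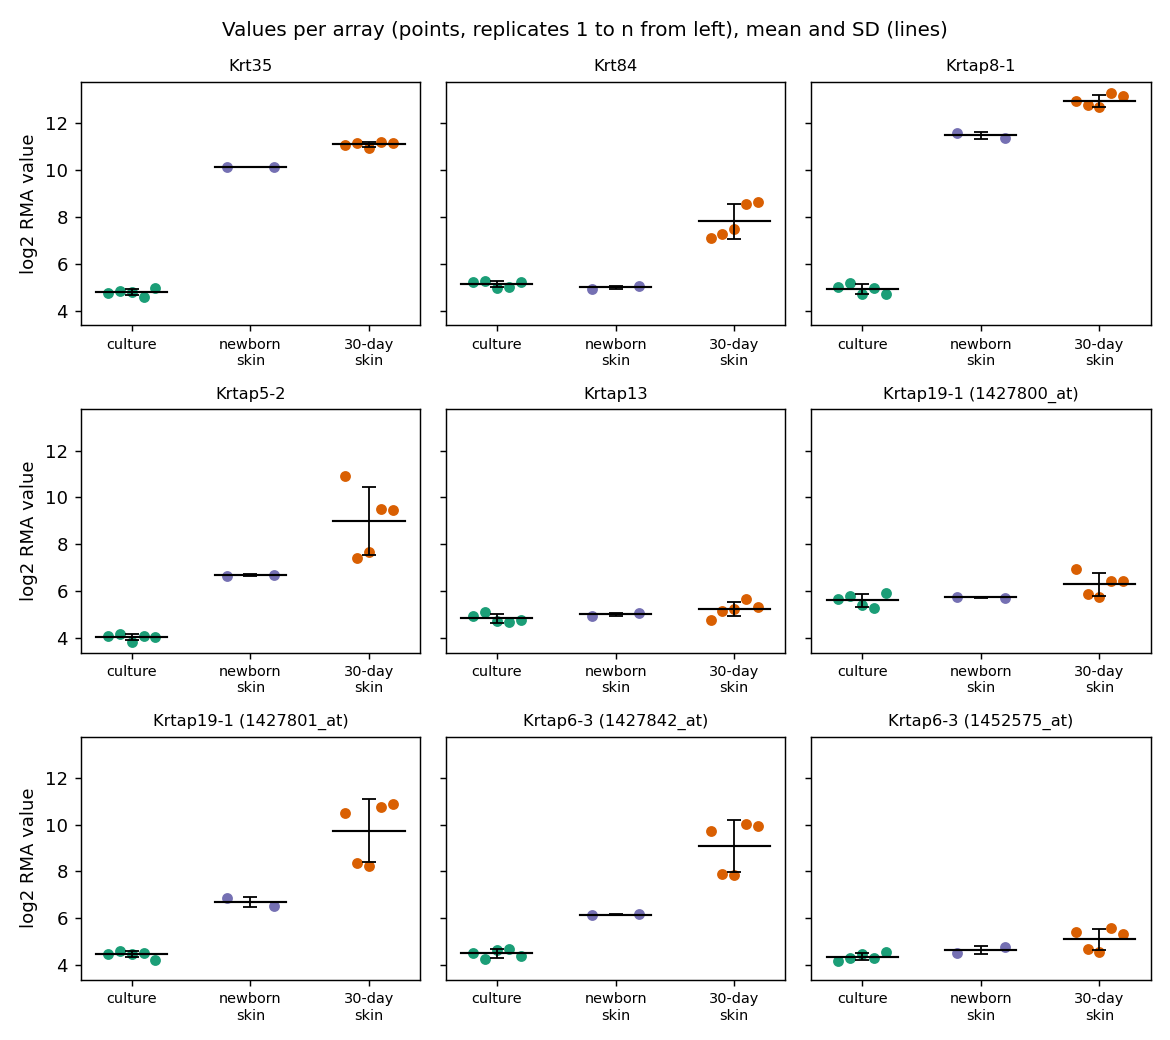
Log2 RMA value of 9 probe sets on each array (points, replicates in order from the left within a group), with the group mean and SD as lines; n is 5 cultures, 2 newborn and 5 30-day skin arrays. Krt35 and Krtap8-1 show 3 separate levels, Krt84 is low in culture and newborn skin alike, Krtap5-2 is widely spread at 30 days, and the probe sets of Krtap19-1 and of Krtap6-3 differ from each other.

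The 30-day arrays did not give one level. The median SD of the members was 0.68 over the 5 arrays, 0.11 over the newborn arrays and 0.14 over the cultures. An SD of 0.68 is above that of 99.1% of all probe sets at 30 days, whose median was 0.16. Other genes of the follicle also spread widely. The median SD was 0.55 over 10 probe sets of other hair shaft proteins, above 98.1% of all probe sets. It was 0.4 over 6 inner root sheath probe sets, above 93.9%. The ultra-high sulfur and high glycine-tyrosine KAPs had medians of 0.97 and 0.96, and the type I keratins 0.39. These are descriptions of one group of arrays and were not tested.

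Every member had its highest 30-day value in replicate 1 (7 members), 4 (20) or 5 (16), and its lowest in replicate 1 (5), 2 (17) or 3 (21). Over all probe sets, replicates 2 and 3 held the highest value for 14.1% and 20%, and replicates 4 and 5 the lowest for 23% and 13.6%. The members' median deviations from the mean of the 5 arrays were 0.25, -0.61, -0.59, 0.66 and 0.63 for replicates 1 to 5. Replicates 2 and 3, and likewise 4 and 5, were the close arrays named earlier. Marker lists of other cell types also differed between these arrays. The skeletal muscle list averaged 11.58, 11.56, 11.47, 10.73 and 10.79 in replicates 1 to 5, and the adipocyte list 8.56, 8.67, 8.65, 8.34 and 8.3. Their part in the members' spread was not tested. Members differed by a median of 0.12 between 2 and 3 and of 0.07 between 4 and 5, but of 1.3 between 2 and 4.

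**Figure D4:**
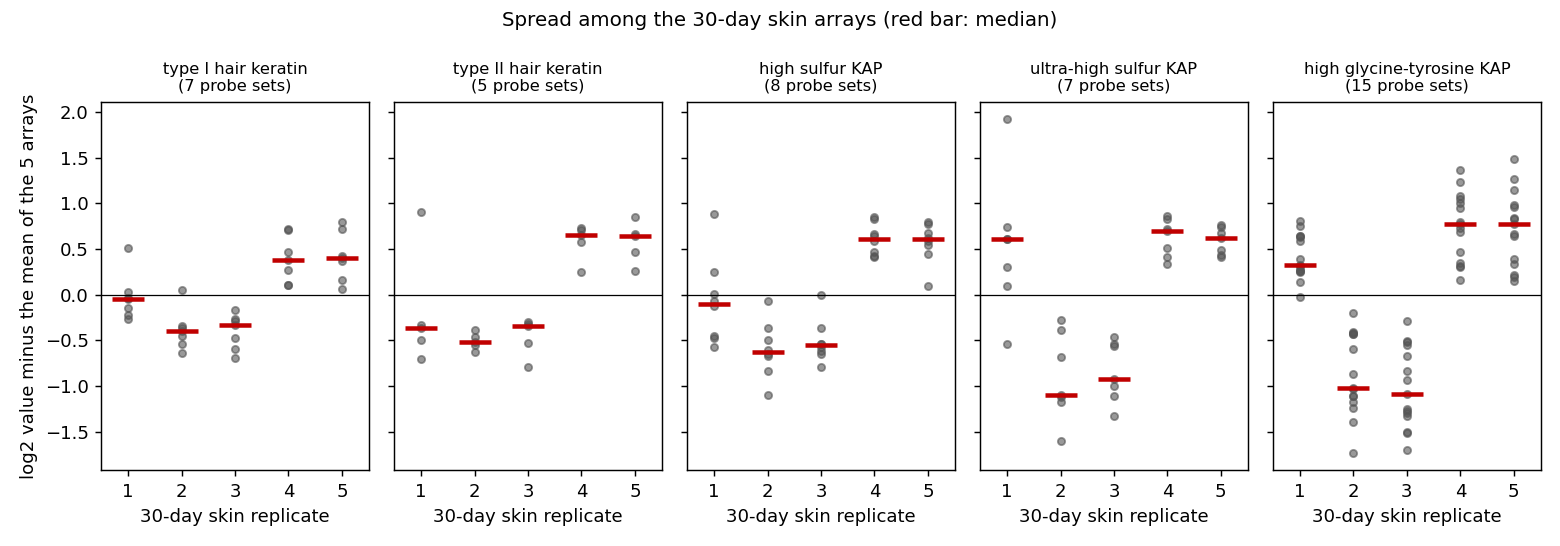
Log2 value minus the mean of the 5 arrays of 30-day skin, for each replicate (x axis) and probe set (points), in 5 panels by family, with red bars for the medians. Replicates 2 and 3 lie mostly below 0 and replicates 4 and 5 above it in every panel, and replicate 1 lies below 0 for most type II keratins and above it for most ultra-high sulfur and glycine-tyrosine KAPs.

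The deviations of replicates 2 and 4 differed by family. They were -0.40 and 0.38 for type I keratins, -0.52 and 0.66 for type II keratins, -0.63 and 0.61 for high sulfur, -1.10 and 0.70 for ultra-high sulfur and -1.03 and 0.78 for high glycine-tyrosine KAPs. Krtap5-2 had the widest range, from 7.39 to 10.92, and Krtap19-4 the largest SD, 1.60. Krt35 had the narrowest range, from 10.94 to 11.22.

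Replicate 1, the array with the high actin ratio and ribosomal RNA signal, did not follow one direction. It held the highest value of the keratins Krt32 and Krt82 and of Krtap5-2, Krtap28-13, Krtap12-1 (1450536_s_at), Krtap16-3 (1427549_s_at) and Krtap19-1 (1427800_at). It held the lowest value of Krt81, Krt84, Krtap9-3, Krtap13 and Krtap14. These were 16.3% and 11.6% of the members. Over all probe sets, replicate 1 held the highest value for 29.3% and the lowest for 29.6%. Krtap5-2, an ultra-high sulfur KAP, read 6.65 and 6.70 in newborn skin and 10.92, 7.39, 7.67, 9.51 and 9.48 at 30 days. Its value on replicate 1 was more than 1 above the next highest array. Without replicate 1, 37 members were called higher at 30 days, against 38 with it. Over all 22626 probe sets, 1440 were called higher without it and 1074 with it. Its fibroblast list was at 10.80, with 10.21 to 10.41 on the other 4 arrays, and its epithelial junction list at 8.19, with 8.66 to 8.72. The part of these values in the members' levels on that array was not tested.

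Strain was compared within the cultures, with all 12 arrays in the fit. Between 2 mixed-strain and 3 FVB cultures 0 of 43 members were called by limma, also 0 at an unadjusted p below 0.05, and the smallest adjusted p was 0.306, for Krtap8-1. In this comparison 9.22% of all probe sets were called. The members' differences ran from -0.23 to 0.52, with a median of 0.07. Both mixed-strain cultures lay above all 3 FVB cultures for 15 members and below them for 5, and this was so for 22% and 24% of all probe sets.

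Krtap3-1, a high sulfur KAP, had the widest difference. It read 6.76 and 6.73 in the mixed-strain cultures and 6.19, 6.09 and 6.40 in the FVB cultures, 0.52 ± 0.40 higher (adjusted p = 0.47). With the 5 cultures alone in the fit, 2 members were called, Krtap3-1 (adjusted p = 0.0191) and Krt81, which read 6.70 and 6.65 against 6.24, 6.05 and 6.37. In that fit 14.6% of all probe sets were called.

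For 5 genes the array carries 2 probe sets each, and these did not always match. Krtap19-1, a glycine-tyrosine KAP, read 6.85 and 6.53 in newborn skin and 10.49, 8.34, 8.23, 10.74 and 10.88 at 30 days by 1427801_at, a difference of 3.05 ± 0.62 (adjusted p = 0.00592). By 1427800_at it read 5.75 and 5.71 against 6.92, 5.86, 5.76, 6.44 and 6.43. The first separated all 3 groups, and the second put culture and newborn skin at overlapping values.

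Krtap6-3, of the same class, behaved likewise. By 1427842_at it read 6.14 and 6.17 in newborn skin and 9.71, 7.90, 7.83, 10.03 and 9.92 at 30 days, a difference of 2.92 ± 0.52. By 1452575_at it read 4.53 and 4.76 against 5.39, 4.70, 4.56, 5.57 and 5.32. Both nevertheless had replicates 2 and 3 as the lowest 30-day arrays.

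In the other 3 pairs both probe sets were called higher at 30 days than in newborn skin. For culture against newborn skin the Krtap12-1 pair was split. It was at -0.69 by 1450535_at, not called, and at -1.98 by 1450536_s_at, called. The Krtap12-1 probe sets gave 1.59 ± 0.33 and 2.48 ± 0.42 for 30-day against newborn skin, the Krtap5-1 probe sets 2.59 ± 0.45 and 2.48 ± 0.46, and the Krtap16-3 probe sets 2.55 ± 0.35 and 1.94 ± 0.27. For probe sets ending in _s_at or _x_at, the suffix is the maker's mark that some probes can match other transcripts. KAP genes form families of near-identical copies, so a probe set's signal may include a relative, and single KAP names are uncertain to that extent.

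A further 4 probe sets carry the symbols of several genes, each with at least 1 Krtap gene, and were kept apart from the 43. All 4 were lower in culture than in either skin group and higher at 30 days than in newborn skin. The probe set of Krtap3-2 and Krtap3-3, both high sulfur KAPs, read 6.78 and 7.0 in newborn skin and 10.76, 10.68, 10.51, 11.95 and 11.96 at 30 days. That difference, 4.28 ± 0.35 (adjusted p = 3.82e-06), was larger than that of any of the 43 members. The probe set shared by Krtap6-1 read 9.37 and 9.35 in newborn skin and 3.88 to 4.14 in culture, a difference of -5.38 ± 0.30.

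Other genes of the hair follicle were read from lists chosen by name. Of 10 probe sets for other hair shaft proteins, 8 were lower and 1 higher in culture than in newborn skin, 9 were lower than in 30-day skin, and 9 were higher at 30 days than in newborn skin, with medians of -3.10, -4.76 and 1.47. They included S100a3, a calcium-binding protein of the cuticle, at -4.66 ± 0.16 for culture against newborn skin. Crym, a hair cortex and matrix protein, was at -6.24 ± 0.21 for culture against 30-day skin, and Gprc5d, a receptor of the cortex, at 2.29 ± 0.27 for 30-day against newborn skin. Dsc2, a desmosomal cadherin, was the one higher in culture than in newborn skin (1426911_at, 1.59 ± 0.35). With close arrays averaged, 3 of the 10 were called higher at 30 days.

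All 6 inner root sheath probe sets, of the layer that moulds the growing shaft, were lower in culture and higher at 30 days, with medians of -5.24 against newborn skin, -6.27 against 30-day skin and 1.03 for 30-day against newborn skin. With close arrays averaged, 0 of the 6 were called higher at 30 days. Replicate 1 held the lowest 30-day value of 5 of the 6, of 5 of the 43 hair keratins and KAPs, and of 29.6% of all probe sets.

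Regulators of hair follicle and shaft formation were called in both directions, as were probe sets over the whole array. Of 39 probe sets for 22 genes, 12 were lower and 6 higher in culture than in newborn skin, 25 were lower and 4 higher than in 30-day skin, and 10 were higher and 1 lower at 30 days than in newborn skin. The medians were -0.31, -0.90 and 0.33. The regulators raised in culture were Runx1 and Wnt10a in both comparisons, and Bmpr1a in the newborn comparison only. Over all 22626 probe sets, culture against newborn skin gave 3972 higher calls and 3337 lower calls. For culture against 30-day skin these were 5689 and 4109, and for 30-day against newborn skin 1074 and 1666. Hoxc13, a homeobox factor known to bind hair keratin genes, read 4.85, 4.61, 4.81, 4.72 and 4.93 in culture and 7.23 and 6.98 in newborn skin, a difference of -2.33 ± 0.21 (adjusted p = 1.58e-06). Foxn1, the factor lacking in nude mice, read 5.60, 5.67, 5.31, 5.61 and 5.63 in culture and 5.90 and 5.85 in newborn skin (-0.31 ± 0.19, adjusted p = 0.265). At 30 days Foxn1 read 6.95, 6.87, 7.09, 7.69 and 7.51, 1.35 ± 0.19 above newborn skin. Of 5 Runx1 probe sets, 3 were higher in culture than in newborn skin, by up to 2.05 ± 0.26 (1422864_at). The other two were at 0.42 (adjusted p = 0.0508) and 0.10 (adjusted p = 0.7). Trps1 was the one regulator lower at 30 days (-0.74 ± 0.14). With close arrays averaged, 0 of the 39 probe sets were called higher at 30 days, and relative to the epithelial junction list 4 were. With that centring 31 were lower and 4 higher in culture than in newborn skin, and the same counts held against 30-day skin. The background was unlike in the 2 comparisons. Of all 22626 probe sets, 14907 were lower and 880 higher in culture than in newborn skin. Against 30-day skin 6773 were lower and 2695 higher.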

How the data were processed

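RNA of 12 samples was hybridised to Affymetrix mouse arrays. The deposited table holds log2 expression values that the authors obtained with RMA, per the submitters' processing notes; no version is given, and the aligner, caller or build is not given in the sources used here. RMA sets each array to a common distribution and gives no detection calls. Gene symbols came from the platform annotation, where 20380 of the tested probe sets had 1 symbol, 691 several and 1555 none. All 43 members matched the RefSeq gene table, with 0 symbols changed.

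From these values limma 3.58.1 (R 4.3.3) fitted 22626 probe sets (64 controls left out) on all 12 arrays with a mean per group, and for strain with separate means for both kinds of culture. Moderated two-sided tests were adjusted by Benjamini-Hochberg over all probe sets, with a threshold of 0.05. Errors are SE of the fitted difference unless named otherwise. No low-value filter was used. Python 3.11.15 made counts and figures. On simulated data with 200 changed probe sets, 83.6% of those changed by 1 log2 were recovered for culture against newborn skin, 86.6% for culture against 30-day skin, 80.6% for 30-day against newborn skin and 71.6% for strain. The simulated noise was independent between arrays, with the same SD in every group, and changed probe sets were drawn from all 22626. These rates do not describe the members, whose SD was larger at 30 days than in the other groups. Arrays give no read depth, and their number limits the precision.

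Members, gene lists and tests were chosen with earlier results of these data known. Named with values are the member with the highest skin mean per family, the largest and smallest differences, members that missed a threshold or overlapped, and genes with several probe sets, with array values given for the comparison concerned in most cases; from the lists, mainly the largest called and those that missed. Further members were named after their values were seen. KAP classes were to follow protein composition, but protein sequences were not used here and family numbers served instead. Same-numbered samples of different groups did not deviate together (correlations of -0.28 to 0.2 over all probe sets), so numbers were not taken as pairs. Alternatives covered normalization, centring, filtering, variance model, array weights, threshold, strain, the samples fitted and leaving out each array. Averaging close arrays was added after the data were seen.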

Additional observations from a re-analysis of the deposited data

Results flagged for a closer look

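Dixon's criterion for a single distant value was applied to 86 groups of 5 arrays (43 members in culture and in 30-day skin). Chance alone marks about 1 group in 20 if the 5 arrays are independent. It marked 3 groups, all in culture. In 30-day skin, members differed little between replicates 2 and 3 and between 4 and 5. A single distant value there was thus hardly possible outside replicate 1. Krtap15 read 4.43 in culture replicate 4 and 4.83 to 4.95 in the others. Krt32 read 6.10 in culture replicate 1 and 5.78 to 5.85 in the others. Krt34 read 5.09 in culture replicate 3 and 4.80 to 4.88 in the others. The distant values came from 3 different cultures, and each lay far below the values of the same gene in skin.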

How the results depend on the processing

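Counts of members called kept their direction under every alternative run. For culture against newborn skin they ran from 29 (close arrays averaged) to 42 (centring on the epithelial junction list), and from 30 to 35 on leaving out 1 array, around 35. For culture against 30-day skin all 38 were called with one probe set per gene. Where all 43 were tested, they ran from 40 (at least 2-fold) to 43, and from 42 to 43 on leaving out 1 array. The threshold of 0.01, the strain covariate and the mixed-strain cultures alone each gave 41. With close arrays averaged, Krtap13 and Krtap19-1 (1427800_at) lost their calls. For 30-day against newborn skin, 38 members became 29 with strain as a covariate and 15 with close arrays averaged, where fewer samples enter, and 29 to 40 on leaving out 1 array. For strain in culture, 0 became 2 with only the cultures fitted, where the 30-day spread does not enter, and stayed 0 to 0 on leaving out 1 array. With the replicate number as a block the counts were 35, 42 and 36; no paired analysis of strain was possible because mixed-strain and FVB cultures share no number.

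Krt84 for culture against newborn skin turned from 0.14 to -0.49 with epithelial centring and to -0.12 with the replicate block. Krtap13 for 30-day against newborn skin turned to -0.15 with epithelial centring and to -0.07 with the strain covariate. Krtap14 for strain turned to 0.02 with array weights, and to 0.06 and 0.09 without culture replicates 1 and 5. None of these was called, and the cause was not tested. Epithelial centring moved the median of all probe sets to -0.59, -0.21 and -0.38 for the 3 skin comparisons, and median centring moved it to 0.11, 0.12 and -0.02. The epithelial split of higher to lower calls was 880 to 14907, 2695 to 6773 and 331 to 6074, beside 3972 to 3337, 5689 to 4109 and 1074 to 1666.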

Other observations

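Among the 30-day arrays, some regulators did not follow the order of the hair keratins and KAPs. Of the 39 regulator probe sets, replicates 1 to 5 held the highest value of 3, 9, 10, 8 and 9. The genes named here were picked after their values were seen, and no test was made. Hoxc13 read 8.40, 8.95, 8.94, 8.08 and 8.23 in replicates 1 to 5, so its lowest values were in replicates 4 and 5, where Krt31 was highest at 12.49 and 12.51. Gata3, a factor of the inner root sheath, read 8.51, 8.83, 9.01, 8.05 and 8.11. Cux1 (1424667_a_at), another factor of that layer, read 6.24, 7.65, 7.63, 6.81 and 6.88. Its other probe sets differed in this. By 1424668_a_at it read 5.81, 6.92, 7.16, 6.19 and 6.28, and by 1451435_at 8.61, 9.12, 9.23, 8.76 and 8.96. By 1425611_a_at it read 7.07, 8.39, 8.48, 8.29 and 8.33, and by 1437686_x_at 6.11, 6.29, 6.55, 6.32 and 6.13. By 1425612_at it stayed between 3.63 and 3.73. Foxn1, Bmp2 and Prdm1 were highest in replicates 4 and 5, as most members were. Dsc2 (1421156_a_at) read 6.22, 7.18, 7.02, 8.36 and 8.27, and by 1426911_at 6.72, 7.0, 6.5, 7.94 and 8.12. Padi1, an enzyme that modifies proteins as they harden, read 7.14, 8.0, 7.88, 8.75 and 8.95. Both genes were highest in replicates 4 and 5. Padi1 and the first Dsc2 probe set were lowest in replicate 1, and the second Dsc2 probe set in replicate 3.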
